A study of Mus musculus with 2 samples.

Results

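Alveolar type 2 (AT2) cells were picked by their transcripts out of single-cell libraries of whole lung from mice with an osteosarcoma. A barcode counted as an AT2 cell when it had at least 500 unique molecular identifiers (UMIs), at least 200 genes and at most 20% mitochondrial UMIs, and when Sftpc, Sftpb and Sftpa1 together made up at least 2% of its UMIs. It also had to hold UMIs of at least 2 of Lamp3, Slc34a2, Etv5 and Cxcl15, of at most 2 of the AT1 genes Rtkn2, Akap5, Igfbp2, Pdpn and Hopx, none of Ptprc or Cdh5, and less than 3% S100a8 plus S100a9 UMIs. The rule kept 340 of 28280 barcodes. The treated library held 152 of them and the PBS library 188.

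Every animal was a female Balb/C mouse carrying an orthotopic tumour of K7M2, a mouse osteosarcoma line, so the control lungs came from tumour-bearing mice too. 1 group received 1V209-Cho-Lip, an agent that the series title describes as a nanomedicine built on an agonist of Toll-like receptor 7 (TLR7), and the other received PBS. The lungs of 3 mice were pooled into 1 library for each group, without labels that tell the mice apart. Age, dose, schedule and time of sampling were not given in the sources used here. With 1 library for each group, no test between the groups was possible, and every difference below is a difference between 2 libraries. The 95% intervals cover counting error only.

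AT2 cells make, store and recycle pulmonary surfactant, which they pack into lamellar bodies, and they divide to renew themselves and the flat AT1 cells that exchange gas. They also secrete antimicrobial proteins and chemokines and carry MHC class II, and so take part in the defence of the airspace. TLR7 is an endosomal sensor of single-stranded RNA that signals through Myd88 to NF-kB and to type I interferon.

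The AT2 label rests on the genes of the rule. In the median treated cell the 3 surfactant transcripts made up 23.9% of UMIs (range 2.36 to 42.5), and in the median PBS cell 26.0% (range 2.23 to 48.2). All of Lamp3, Slc34a2, Etv5 and Cxcl15 were seen in 120 treated and 141 PBS cells, whereas 5 and 15 cells passed with the minimum of 2. Just outside the rule stood 2 treated and 6 PBS barcodes with 1 of these genes, and 4 and 5 barcodes with a surfactant share of 1 to 2%, beside 3 and 1 cells admitted at 2 to 3%. The limit on AT1 genes turned away 4 treated and 5 PBS barcodes. Ptprc alone kept out 34 and 64 barcodes, and Cdh5 alone 27 and 32. These values chose the cells and are given as a description.

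The library totals were 54843992 UMIs in 13740 treated barcodes and 58156102 UMIs in 14622 PBS barcodes. The libraries shared 268 barcodes, 5 of the AT2 cells of each library had a barcode that also occurred in the other library, and no barcode was an AT2 cell in both. The neutrophil transcripts S100a8 and S100a9 made up 3.66% of all treated UMIs and 0.544% of all PBS UMIs. Inside the AT2 cells they made up 0.0257% and 0.0135%, and 128 of 152 treated cells held at least 1 such UMI against 41 of 188 PBS cells. Doublets were not removed in the main values, and a caller of doublets would have left 143 and 177 AT2 cells. The AT2 cells of the treated library held more UMIs per cell, with a median of 9078.5 UMIs and 2433 genes against 6123 UMIs and 1884 genes. Their summed counts were similar, at 1355350 and 1251291 UMIs.

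AT2 cells made up 1.11% (exact 95% interval 0.940 to 1.30) of the barcodes in the treated library and 1.29% (1.11 to 1.49) in the PBS library. The ratio of the shares was 0.858 (0.688 to 1.07), with an interval that includes 1. Among barcodes without a Ptprc UMI, which leaves out most blood cells, the shares were 3.10% and 3.57%, a ratio of 0.871 (0.698 to 1.08). Among barcodes with less than 3% S100a8 plus S100a9 UMIs the order turned, with 152 of 8781 (1.73%) against 188 of 12960 (1.45%) and a ratio of 1.19 (0.957 to 1.49). No direction could therefore be read from the share of AT2 cells, since it turned with the barcodes it was divided by. Among barcodes with Epcam and no Ptprc the ratio was 0.770 (0.552 to 1.09), but Epcam itself differed between the libraries inside AT2 cells, at 350 against 61 UMIs in the summed cells.

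Surfactant genes had close levels in both libraries. Levels are given in CPM, the UMIs of a gene for every 1000000 UMIs in the summed AT2 cells of its library. Sftpc, the most abundant of them, which encodes surfactant protein C, stood at 202652 CPM in the treated and 217310 CPM in the PBS library. Sftpb stood at 11225 and 9452 CPM and Sftpa1 at 29211 and 23099 CPM. These 3 belong to the selection rule. Among the surfactant and lamellar body genes that the rule did not use, Sftpd, the collectin surfactant protein D, stood at 4434 CPM in treated and 3273 CPM in PBS cells, a ratio of 1.35. Abca3, the pump that loads phospholipid into lamellar bodies, went the other way, at 476 and 632 CPM (ratio 0.753, 0.677 to 0.836). Of these 14 genes, none was at least 1.5-fold higher and 1 was at least 1.5-fold lower, and their median log2 ratio was 0.15. Over all 8369 genes with at least 20 UMIs in the summed AT2 cells, 13.6% were at least 1.5-fold higher in the treated library, 10.8% were at least 1.5-fold lower, and the median log2 ratio was -0.01. At 2-fold these shares were 5.42% and 3.14%. The 1.5-fold shares are the background for the counts of list members given below.

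The genes that set AT2 cells most apart from the other barcodes were alike in both libraries. Sftpc was 66.9 times its level in all other barcodes in the treated library and 59.8 times in the PBS library. Sfta2, a surfactant-associated secreted protein, was 63.7 and 59.8 times its level elsewhere, and Lamp3, a membrane protein of lamellar bodies, 51.7 and 52.3 times. Sftpc and Lamp3 belong to the selection rule, so their excess was built in by the selection, whereas the rule did not use Sfta2. S100g, a calcium-binding protein, stood at 761 CPM in treated and 1071 CPM in PBS AT2 cells (ratio 0.710). Egfl6, a secreted protein with EGF-like repeats, stood at 291 and 439.5 CPM (ratio 0.661). Chia1, an acidic chitinase, stood at 430.1 and 324 CPM (ratio 1.33), and Pla2g1b, a secreted phospholipase, at 528 and 407 CPM (ratio 1.30). Hc, complement component C5, which AT2 cells also express, was lower in the treated library, at 764 CPM against 1384 CPM (ratio 0.552). The levels of these identity genes thus differed between the libraries by less than 2-fold in either direction.

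Genes of lipid synthesis were more often lower than higher in the treated library. Of the 32 measured, 6 were at least 1.5-fold lower and 1 was at least 1.5-fold higher, and the median log2 ratio was -0.25. Of all genes measured in AT2 cells, 10.8% were at least 1.5-fold lower and 13.6% higher. Scd2, a desaturase that makes monounsaturated fatty acids, stood at 263 CPM against 493 CPM, a ratio of 0.533 (0.466 to 0.608). Its relative Scd1 stood at 1527 CPM against 1975 CPM, a ratio of 0.773. Fasn, the fatty acid synthase, stood at 349.7 and 479 CPM (ratio 0.731), and Acaca, which makes its malonyl-CoA substrate, had a ratio of 0.652. The fatty acid desaturases Fads1 and Fads2 had ratios of 0.632 and 0.396, the latter from 24 treated and 56 PBS UMIs. Chpt1, which makes phosphatidylcholine, was the member that was higher, with a ratio of 1.98. The list was also lower in other cells: its median log2 ratio was -0.31 in capillary endothelial cells, -0.12 in alveolar macrophages and -0.15 in lymphocytes, each picked by a rule on its own markers. In AT1 cells, kept as described below, it was -0.29.

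Lcn2, the siderophore-binding protein lipocalin-2, was the acute-phase gene with the highest ratio among those at or above the level of other barcodes (chromosome 2, 32384633 to 32388252, minus strand, mm10). It had 2953 UMIs or 2179 CPM in the treated and 715 UMIs or 571 CPM in the PBS AT2 cells, a ratio of 3.81 (3.51 to 4.14). Lcn2 UMIs were seen in 91.4% of treated and 66.0% of PBS cells, and the median cell stood at 794 CPM against 186 CPM. Cells with at least 1000 CPM of Lcn2 were 66 of 152 (43.4%, interval 35.4 to 51.7) in the treated library and 17 of 188 (9.04%, 5.36 to 14.1) in the PBS library. Lcn2 is also a neutrophil gene, and its level in all other barcodes was 681 CPM in the treated and 83.3 CPM in the PBS library, below that in AT2 cells in both. In lymphocytes, which should lack it, Lcn2 stood at 47.6 CPM and 10.9 CPM. The 15 neutrophil markers summed to 508 CPM in treated and 262 CPM in PBS AT2 cells, and to 52509 and 8739 CPM in all other barcodes. Of these markers the rule limits S100a8 and S100a9, so their low sum in AT2 cells was in part set by the selection. Whether neutrophil transcripts added to the Lcn2 level of AT2 cells was not tested.

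Of the 18 acute-phase and antimicrobial genes measured, 10 were at least 1.5-fold higher and 1 was lower, with a median log2 ratio of 0.67, and 7 stood below 0.5 times their level in the other barcodes of the library where they were higher. Lrg1, a secreted leucine-rich glycoprotein, stood at 308 CPM (418 UMIs) in the treated library and 117 CPM (147 UMIs) in the PBS library, a ratio of 2.63 (2.17 to 3.19). Other treated barcodes held more Lrg1 than the AT2 cells, at 607 CPM, against 37.8 CPM in PBS, and its ratio in lymphocytes was 18.6. Lyz2, the lysozyme of AT2 cells and macrophages, stood at 24149.5 CPM against 16867 CPM, a ratio of 1.43 (1.41 to 1.46). Chil1, a chitinase-like protein, had a ratio of 1.49, and C3, the central complement component, 1.98. The metallothionein Mt1 had a ratio of 1.70 and the protease inhibitor Slpi 1.63. The extremes of the list had few UMIs and were among these 7, Wfdc17 with 20 treated and 4 PBS UMIs (ratio 4.62) and Retnla with 9 and 20 (ratio 0.415). In other cells the list was higher as well, with median log2 ratios of 1.23 in capillary endothelial cells, 1.31 in alveolar macrophages and 1.10 in lymphocytes. In AT1 cells, kept as described below, it was 1.71.

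Lyz1, a near-identical copy of the lysozyme gene Lyz2 whose reads the counting may have split, parted the AT2 cells into a minority with much of it and a majority with none. It was at 0 in 107 of 152 treated and 141 of 188 PBS cells. At least 1000 CPM was reached by 28 treated cells (18.4%, interval 12.6 to 25.5) and 36 PBS cells (19.1%, 13.8 to 25.5), and these held 99.1% and 99.3% of all Lyz1 UMIs. The share of such cells was thus close in both libraries. Within them the median level was 11019 CPM in the treated and 5950.5 CPM in the PBS library. Their depth did not stand apart, with medians of 9178 UMIs against 9012 in the other treated cells, and 5853.5 against 6248.5 in the PBS cells.

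**Figure D1:**
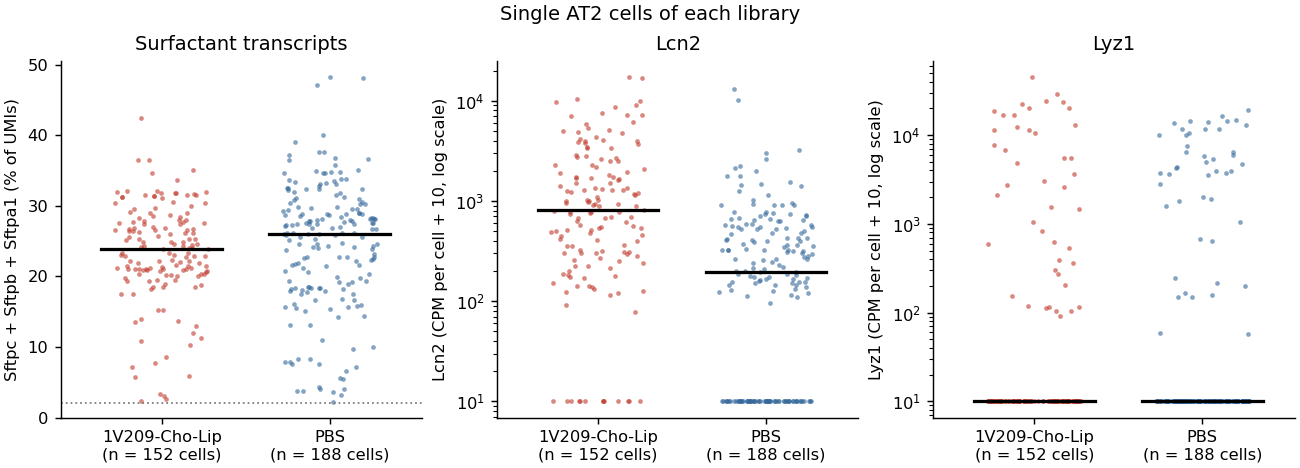
Single AT2 cells of both libraries, each point 1 cell and each line the median. The left panel gives the percent of UMIs from Sftpc, Sftpb and Sftpa1 with the 2% limit of the rule dotted, the middle panel Lcn2 and the right panel Lyz1, both in CPM of the cell on a log axis with 10 added; the surfactant shares overlap, the median of Lcn2 is 794 CPM in treated and 186 CPM in PBS cells, and most cells have no Lyz1.

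NF-kB target genes had the highest median log2 ratio of the pathway lists, 0.71, with 12 of 21 measured members at least 1.5-fold higher and none lower. Of the 21, 11 stood below 0.5 times their level in other barcodes. Over all genes measured in AT2 cells, 13.6% were at least 1.5-fold higher and 10.8% lower. The list had median log2 ratios of 0.43 in capillary endothelial cells, 0.09 in alveolar macrophages, 0.29 in lymphocytes and 0.30 in AT1 cells. The NF-kB list summed to 2124 CPM in the median treated cell and 1344 CPM in the median PBS cell. Cxcl1, a neutrophil-attracting chemokine, stood at 312 CPM (423 UMIs) in the treated library and 115 CPM (144 UMIs) in the PBS library, a ratio of 2.71 (2.24 to 3.30). It was seen in 38.2% of treated and 23.4% of PBS cells. Nfkbiz, a nuclear IkB protein that is needed for a set of secondary NF-kB targets, stood at 327 and 133 CPM (ratio 2.46, 2.06 to 2.96). Icam1, an adhesion molecule, had more UMIs and a smaller ratio, 1.37, and Nfkbia, the classical feedback inhibitor, had 1.28. Sod2, the mitochondrial superoxide dismutase, had 1.64.

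The members with few UMIs were less certain. Cxcl2, another neutrophil-attracting chemokine, had 195 treated and 51 PBS UMIs and a ratio of 3.53, but 1 cell held 28.7% of the treated UMIs and other barcodes held more of it. Il6, which encodes interleukin-6, had 61 and 28 UMIs and a ratio of 2.01. Cxcl1 set AT2 cells apart from capillary endothelial cells, where its ratio was 0.550, while it was 1.06 in alveolar macrophages and 0.969 in lymphocytes.

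The promoters of 4 of these genes are shown because NF-kB and C/EBP factors are known to act at genes of both lists. Of the NF-kB and acute-phase lists, 12 genes were at least 2-fold higher with at least 60 UMIs. The 250 bases before the start were found in RefSeq (GRCm38.p6) for 9 of them and searched on both strands. Capitals mark matches to the NF-kB consensus or to the C/EBP motif TTGCNNAA. Cxcl1, Cxcl2, Il6 and Lcn2 follow, each 5′ to 3′ on the strand of its gene.
Cxcl1, chr5:90890995-90891244, plus strand: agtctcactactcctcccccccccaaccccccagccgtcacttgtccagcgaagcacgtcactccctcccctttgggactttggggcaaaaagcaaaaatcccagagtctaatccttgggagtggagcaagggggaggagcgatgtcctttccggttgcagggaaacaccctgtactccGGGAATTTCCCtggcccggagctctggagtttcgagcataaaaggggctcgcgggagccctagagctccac
Cxcl2, chr5:90903649-90903898, plus strand: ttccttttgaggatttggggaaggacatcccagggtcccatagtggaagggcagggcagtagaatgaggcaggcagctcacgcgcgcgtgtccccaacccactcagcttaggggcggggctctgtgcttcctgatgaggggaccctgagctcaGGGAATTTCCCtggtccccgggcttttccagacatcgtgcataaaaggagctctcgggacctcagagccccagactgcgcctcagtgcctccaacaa
Il6, chr5:30012864-30013113, plus strand: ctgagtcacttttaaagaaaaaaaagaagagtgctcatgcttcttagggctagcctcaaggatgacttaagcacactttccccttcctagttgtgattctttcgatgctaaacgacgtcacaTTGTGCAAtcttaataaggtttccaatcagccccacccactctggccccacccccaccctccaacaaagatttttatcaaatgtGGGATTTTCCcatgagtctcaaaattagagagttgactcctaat
Lcn2, chr2:32387740-32387989, minus strand: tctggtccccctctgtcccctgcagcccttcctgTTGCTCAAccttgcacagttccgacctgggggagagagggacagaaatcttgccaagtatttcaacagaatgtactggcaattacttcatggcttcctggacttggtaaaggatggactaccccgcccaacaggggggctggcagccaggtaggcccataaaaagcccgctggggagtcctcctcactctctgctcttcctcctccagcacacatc

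Cxcl1 and Cxcl2 hold the same 11 letters, in which 2 overlapping NF-kB matches begin 71 and 70 bases before the start of Cxcl1 and 97 and 96 bases before that of Cxcl2. Il6 holds an NF-kB match 44 bases and a C/EBP match 128 bases before its start. Lcn2 holds a C/EBP match 216 bases before its RefSeq start and no NF-kB match in this window. The window lies inside the Lcn2 span given above, which came from GENCODE and has a start further upstream. Promoters of 5 of the 9 genes held an NF-kB match, which 3.90% of all 32851 promoters of this length hold, and 4 held a C/EBP match, which 9.56% hold. Most of the 9 come from a list of known NF-kB targets, so nothing is read from these counts. The STAT motif TTCNNNGAA was found for 1 gene and in 7.02% of all promoters. The matches are letters in a window and were not tied to binding by any measurement here.

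**Figure D2:**
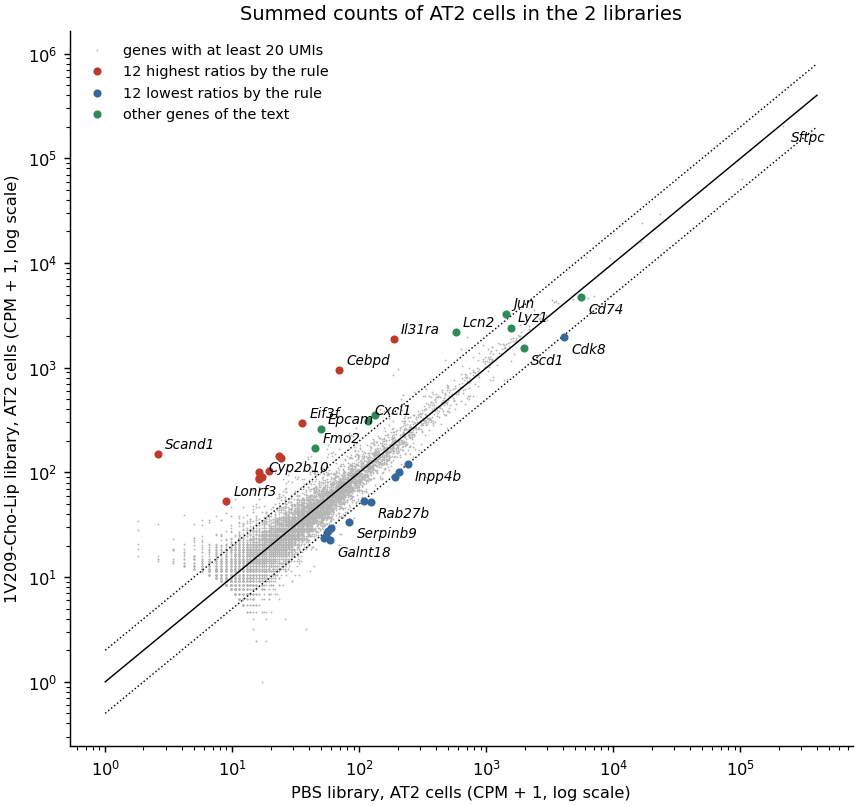
Level of each gene in the summed AT2 cells of the PBS library (x axis) and the treated library (y axis), both in CPM with 1 added on log axes. Each grey point is a gene with at least 20 UMIs, the coloured points are the 12 highest and 12 lowest ratios and other genes of the text, the solid line marks equal levels and the dotted lines 2-fold; Lcn2 (2179 against 571 CPM) lies above the upper dotted line.

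Cebpd, which encodes the transcription factor C/EBP delta (chromosome 16, 15887286 to 15891031, mm10), was among the genes with the highest ratios in AT2 cells. It had 1274 UMIs or 940.0 CPM in the treated library and 86 UMIs or 68.7 CPM in the PBS library, a ratio of 13.7 (11.0 to 17.2). Of the treated cells 52 of 152 (34.2%) reached 1000 CPM, and of the PBS cells 0 of 188 did, which allows a share of up to 1.60% (3 counts of the total; exact upper bound 1.94%). The ratio was 14.4 in capillary endothelial cells, 23.2 in lymphocytes and, lower than in AT2 cells, 7.53 (5.81 to 9.88) in alveolar macrophages. Scand1, a SCAN domain protein, differed most, with 201 against 2 UMIs (148 against 1.60 CPM) and a ratio of 92.8 (25.4 to 771). Its ratios elsewhere were 51.0, 44.0 and 48.7 in the same order of cells. Il31ra, a subunit of the interleukin-31 receptor, stood at 1864 and 185 CPM in AT2 cells (ratio 10.1) and had ratios of 10.6, 6.66 and 9.46 elsewhere. Eif3f, a subunit of a translation initiation factor, had ratios of 8.61 in AT2 cells and 7.05, 3.63 and 8.20 elsewhere. These 4 genes thus separated the libraries in each kind of cell compared. An effect of the treatment and any other difference between the libraries cannot be told apart here.

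Most of the genes that were much higher in AT2 cells were higher in other cells as well. Of 4495 genes with at least 60 UMIs, 3.69% were at least 2-fold higher in the treated AT2 cells and 0.845% at least 2-fold lower. After ribosomal, mitochondrial, haemoglobin, immune receptor and predicted genes were set aside, 161 were higher, and 150 of these had at least 20 UMIs in capillary endothelial cells, alveolar macrophages and lymphocytes. In all 3 kinds of cell 76 were at least 1.5-fold higher too, in 1 or 2 of them 52 were, and in none 22 were. At least 1.5-fold higher were 11.0%, 10.2% and 11.1% of all genes measured in capillary endothelial cells, alveolar macrophages and lymphocytes, and 13.3%, 7.91% and 10.2% were at least 1.5-fold lower. Of the 35 genes that were at least 2-fold lower in AT2 cells, 29 were measured in all 3. Rab27b and Serpinb9 were lower in all 3 kinds of cell, 11 were lower in 1 or 2 of them and 16 in none.

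AT1 cells, the nearest neighbours, were picked by their own genes as well. Of 289 treated and 141 PBS barcodes so picked, 7 and 19 had at least 0.5% Def8 UMIs, held 24.05% and 61.0% of the UMIs and were set aside, a choice made after seeing the data. In the remaining 282 and 122 barcodes Lcn2 stood at 123 CPM (183 UMIs) and 2.77 CPM (2 UMIs), below its level in AT2 cells of both libraries, with a ratio of 44.4 (12.1 to 369). The Lcn2 ratio was 21.6 in alveolar macrophages, 6.34 in capillary endothelial cells and 4.37 in lymphocytes, so AT2 cells had the highest levels of these 5 kinds of cell and a ratio, at 3.81, that was not above the others. Cebpd had a ratio of 24.5 (12.3 to 57.3) there and Cxcl1 one of 1.24 (1.08 to 1.41), against 13.7 and 2.71 in AT2 cells.

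**Figure D3:**
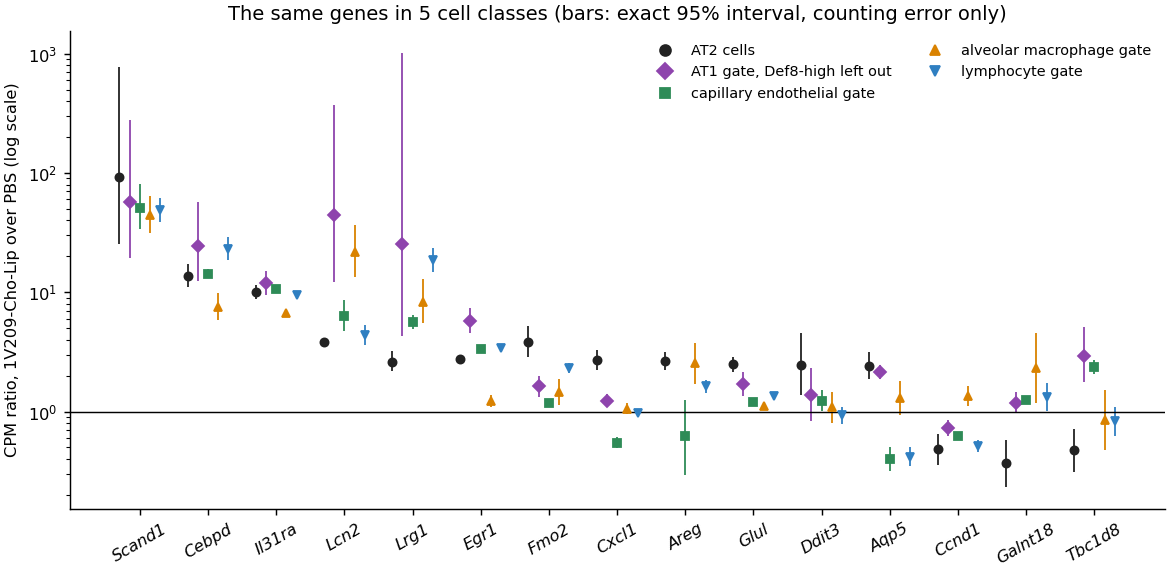
Ratio of treated to PBS CPM on a log axis for 15 genes in AT2 cells, AT1 cells, capillary endothelial cells, alveolar macrophages and lymphocytes. Each point is a gene in 1 kind of cell with its exact 95% interval for counting error; Scand1 and Cebpd stand high in all of them, whereas Cxcl1 is at 2.71 in AT2 cells and 0.550 in capillary endothelial cells.

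Glul and Phlda1 were among the 22 that were higher in AT2 cells and past 1.5-fold in none of the 3 other kinds of cell (capillary endothelial cells, alveolar macrophages and lymphocytes). They are named after their values were seen. Glul, which encodes glutamine synthetase, stood at 550.4 CPM (746 UMIs) in the treated and 221 CPM (277 UMIs) in the PBS library, a ratio of 2.49 (2.16 to 2.86), and was seen in 88.2% and 55.3% of cells. Its ratio was 1.20 in capillary endothelial cells, 1.11 in alveolar macrophages and 1.35 in lymphocytes, but 1.70 (1.35 to 2.16) in AT1 cells. Phlda1 had 792 and 338 UMIs and a ratio of 2.16. Acot1, a thioesterase that frees fatty acids from coenzyme A, has near-identical copies and had 186 against 29 UMIs in AT2 cells, a ratio of 5.92. Its ratio was 2.51 (1.72 to 3.68) in alveolar macrophages, from 74 and 48 UMIs, and it had few UMIs in capillary endothelial cells (15 and 4) and lymphocytes (19 and 9). Cyp2b10, a cytochrome P450 of xenobiotic metabolism, had 121 against 20 UMIs and a ratio of 5.59 (3.46 to 9.47). Acot1 and Cyp2b10 were seen in a minority of PBS AT2 cells, at 13.8% and 7.45%, against 58.6% and 34.2% of treated AT2 cells.

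The other genes with the highest ratios had mixed roles. Rab5if, Nenf, Raly, Mtarc2 and Iscu had ratios of 5.58 to 6.51. Iscu is the scaffold on which iron-sulfur clusters are built, and Raly binds RNA. Lonrf3 had a ratio of 6.55 from 71 and 10 UMIs, of which 1 cell held 25.4% in the treated library.

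The lower genes named by the rule had ratios between 0.372 and 0.494. Galnt18, an enzyme that starts mucin-type glycosylation, had 29 treated and 72 PBS UMIs and the lowest ratio of those named, 0.372 (0.233 to 0.580). Its ratios in capillary endothelial cells, alveolar macrophages and lymphocytes were 1.26, 2.29 and 1.32. Serpinb9, an inhibitor of granzyme B, had 44 and 103 UMIs (ratio 0.394). Col4a1, a collagen chain of basement membrane, had 122 and 239 UMIs (ratio 0.471), and Ccnd1, cyclin D1, had 71 and 136 UMIs, or 52.4 and 109 CPM (ratio 0.482, 0.357 to 0.647). Stip1, a co-chaperone that links Hsp70 and Hsp90, had a ratio of 0.441, and the lipid phosphatase Inpp4b 0.494. Cdk8, a kinase of the Mediator complex, had 2634 and 5085 UMIs (ratio 0.478), and 1 cell held 29.2% of its treated UMIs. Rab27b, Csgalnact1, Tbc1d8, Veph1 and Nt5c lay between these values.

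Of 18 transcription factors of the alveolar epithelium that were measured and not used by the rule, 7 with Cebpd among them were at least 1.5-fold higher and none lower, with a median log2 ratio of 0.13, and none stood below 0.5 times its level in other barcodes. Nkx2-1, the master factor of lung epithelium, stood at 153 CPM (207 UMIs) in treated and 59.1 CPM (74 UMIs) in PBS cells, a ratio of 2.58 (1.97 to 3.42). At full depth, which was greater in treated cells, it was seen in 69.7% and 33.0% of cells. The shares at equal depth, given below, lay closer together. Irx3 had 116 and 30 UMIs and a ratio of 3.57. The epithelial factors Foxa1, Elf3, Klf5 and Ehf had ratios of 2.06, 1.85, 1.77 and 1.56. Etv5, a factor that maintains AT2 cells and belongs to the rule, stood at 297 and 381 CPM. Foxp1 had a ratio of 0.880. In the AT1 cells without Def8-high barcodes, 10 of 14 measured members of this list were at least 1.5-fold higher and none lower. Their median log2 ratio was 1.05. Of all genes measured, 21.0% were at least 1.5-fold higher in those AT1 cells and 13.6% in AT2 cells. Nkx2-1 had a ratio of 5.46 in the AT1 cells, from 225 and 20 UMIs.

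No UMI of Tlr7 was seen in any AT2 cell of either library. A count of 0 in these sums allows up to 2.21 CPM in the treated and 2.40 CPM in the PBS library. Tlr9 was at 0 in both, and Tlr8 had 1 UMI in the PBS library. Of the 15 measured genes of the TLR7 pathway, 3 were at least 1.5-fold higher and 2 lower, with a median log2 ratio of -0.16. Over all genes measured in AT2 cells the shares were 13.6% and 10.8%, and nothing is read from these counts. Myd88, the adaptor of TLR7, had 82 and 51 UMIs and a ratio of 1.48, and Chuk, a kinase that phosphorylates the inhibitors of NF-kB, had 2.65. Cnpy3, a chaperone of Toll-like receptors, had 0.434, and Irak2 0.577.

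Of 24 interferon-stimulated genes measured, 1 was at least 1.5-fold higher and 5 were lower, beside 13.6% and 10.8% of all genes measured. The median log2 ratio of the 24 was 0.01, and 20 stood below 0.5 times their level in other barcodes. Irf7, a factor that amplifies interferon, was the higher one, from 15 and 5 UMIs, with an interval that includes 1 (2.77, 0.957 to 9.74). Bst2, which tethers enveloped viruses, stood lower at 69 against 116 UMIs (ratio 0.549), and Samhd1, which depletes nucleotides, at 0.511. Ifi27, Ifitm3 and Irf1 had ratios of 0.933, 0.864 and 1.14. The per-cell sum of the list had a median of 761 CPM in treated and 763 CPM in PBS cells.

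Genes of antigen presentation were level or lower. MHC class II genes had a median log2 ratio of -0.28, with 1 of 10 at least 1.5-fold higher and 1 lower. These counts are close to the shares over all genes measured in AT2 cells, 13.6% and 10.8%. Cd74, the invariant chain, stood at 4693 CPM in the treated and 5550 CPM in the PBS library, a ratio of 0.845 (0.817 to 0.875). The chains H2-Aa, H2-Eb1 and H2-Ab1 had ratios of 0.868, 0.756 and 0.714, and Ciita, the class II transactivator, had 0.539. Ctss, a protease that trims the invariant chain, was the higher one at 1.58, but 1 cell held 41.7% of its treated UMIs. Cd74 was lower in the other kinds of cell too, with ratios of 0.670 in capillary endothelial cells, 0.451 in alveolar macrophages and 0.895 in lymphocytes. MHC class I genes had a median log2 ratio of -0.22, with none of 16 at least 1.5-fold higher and 4 lower. H2-K1, H2-D1 and B2m had ratios of 0.864, 0.946 and 0.923, and Tap1, a subunit of the peptide transporter, had 0.462. Of these 16 genes, 14 stood below 0.5 times their level in other barcodes.

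**Figure D4:**
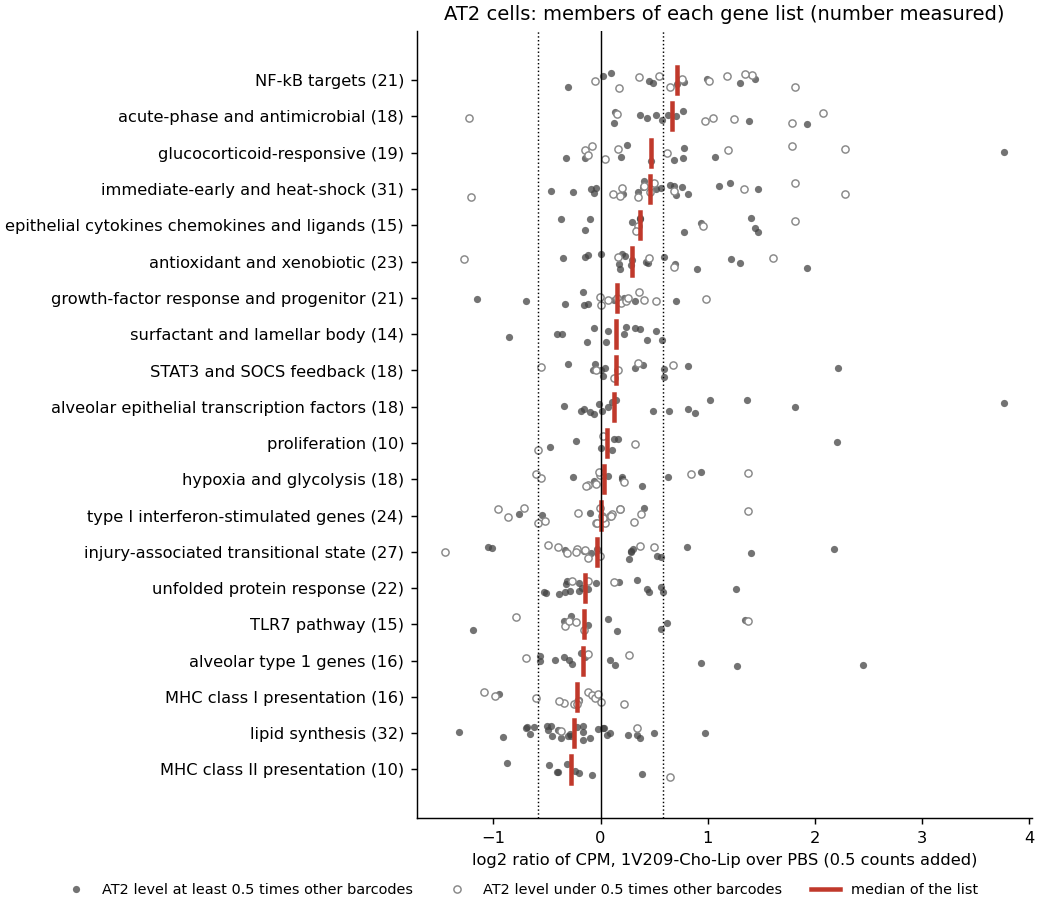
Log2 ratio of treated to PBS CPM, with 0.5 counts added, for the measured members of each gene list in AT2 cells. Each point is a gene not used by the selection rule, open where its AT2 level is under 0.5 times that of other barcodes, and each bar is the median of a list, from 0.71 for NF-kB targets to -0.28 for MHC class II genes; the dotted lines mark 1.5-fold.

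Levels of the immediate-early and heat-shock list differed widely from cell to cell. The list summed to 19032 CPM in the median treated cell, with quartiles of 10368 and 28202 CPM, and to 8004 CPM in the median PBS cell, with quartiles of 3975 and 17878 CPM. Of its 31 measured genes, 12 were at least 1.5-fold higher and 1 lower, the median log2 ratio was 0.46, and 12 stood below 0.5 times their level in other barcodes. Jun, an AP-1 subunit, stood at 3275 and 1421 CPM (ratio 2.30, 2.18 to 2.44), and its partner Fos at 3535 and 2389 CPM (ratio 1.48). Egr1, a zinc finger factor induced within minutes by many stimuli, stood at 1945 and 703 CPM (ratio 2.77, 2.56 to 2.99). Egr1 was also higher in capillary endothelial cells (3.36) and lymphocytes (3.43), and less so in alveolar macrophages (1.23). Atf3 had a ratio of 1.43, and Hsph1, a heat-shock protein, was the lower member at 0.423.

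Genes that glucocorticoids induce had a median log2 ratio of 0.47, with 9 of 19 at least 1.5-fold higher and none lower. Cebpd belongs to this list too. Dusp1, a phosphatase of MAP kinases, stood at 975 and 199.8 CPM (ratio 4.88), below 0.5 times its level in the other treated barcodes. Per2, a clock gene, had a ratio of 2.11, Zfp36, which destabilises cytokine mRNA, 1.60, and Errfi1 1.39. The list had median log2 ratios of 0.65 in capillary endothelial cells, 0.12 in alveolar macrophages and 0.32 in lymphocytes. In the AT1 cells without Def8-high barcodes it was 0.99, above the value in AT2 cells. Of 18 genes around STAT3, 5 were at least 1.5-fold higher and none lower, with a median log2 ratio of 0.14. Of all genes measured in AT2 cells, 13.6% were at least 1.5-fold higher and 10.8% lower. The STAT3 list had higher medians in the other kinds of cell. They were 0.69 in AT1 cells, 0.60 in capillary endothelial cells, 0.24 in alveolar macrophages and 0.51 in lymphocytes. Junb stood at 1648 and 939 CPM (ratio 1.76) and Stat3 itself at 342 and 227 CPM (ratio 1.51). Pim3, a kinase, had 133 and 26 UMIs (ratio 4.72), whereas the feedback genes Socs3 and Socs2 had 1.32 and 1.03. In the unfolded protein response list, 2 of 22 were at least 1.5-fold higher and none lower, with a median log2 ratio of -0.15. Ddit3, a factor of prolonged stress, had 45 and 17 UMIs (ratio 2.44), while the chaperones Hspa5, Hsp90b1 and Pdia6 had 0.795, 0.873 and 0.692.

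Of 27 measured genes of the injury-associated transitional state, through which AT2 cells pass on the way to AT1 cells, 3 were at least 1.5-fold higher and 3 lower, with a median log2 ratio of -0.04, and 11 stood below 0.5 times their level in other barcodes. The keratins Krt8 and Krt18, its usual markers, had ratios of 1.21 and 1.22. Areg, amphiregulin, a ligand of the EGF receptor, stood at 349.7 CPM (474 UMIs) against 132 CPM (165 UMIs), a ratio of 2.65 (2.22 to 3.19). Areg was higher in alveolar macrophages (2.53) and lymphocytes (1.63). In capillary endothelial cells it had only 13 and 26 UMIs, and its ratio of 0.624 had an interval that includes 1 (0.295 to 1.26). Gdf15 had 46 and 9 UMIs (ratio 4.72), but 1 cell held 45.7% of the treated ones. The interleukin-1 receptor Il1r1 had a ratio of 0.490 and Ccnd1 0.482. Fn1, fibronectin, had 8 and 21 UMIs and the lowest ratio, 0.352.

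AT1 genes that the rule left free had a median log2 ratio of -0.17, with 3 of 16 at least 1.5-fold higher and 1 lower. Ager, the receptor that is most abundant in AT1 cells, stood at 765 and 1132 CPM (ratio 0.676, 0.623 to 0.733), and Cldn18, a lung claudin of tight junctions, had 0.745. Aqp5, a water channel, went the other way, at 164.5 and 67.9 CPM from 223 and 85 UMIs (ratio 2.42, 1.88 to 3.15). Vegfa, a growth factor for capillaries, had 1.93, and Cyp2b10, the highest of the list, 5.59. The rule itself limits AT1 genes, so cells further along that way could not enter.

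Genes of growth-factor response and progenitor function had a median log2 ratio of 0.16, with 2 of 21 at least 1.5-fold higher and 2 lower. For this list and the 2 that follow, the shares over all genes measured were 13.6% higher and 10.8% lower. Fgfr2, the receptor that maintains AT2 cells, had a ratio of 1.25, Met 1.09 and the antagonist Spry1 1.64, while Erbb2 had 0.434 and Id2 0.795. Genes of proliferation had a median log2 ratio of 0.06, with 1 of 10 higher and 1 lower. The higher one, Rrm2, had 22 and 4 UMIs, of which 1 treated cell held 90.9%. At least 3 of 13 cell-cycle genes were seen in 3 of 152 treated cells (1.97%, interval 0.409 to 5.66) and 1 of 188 PBS cells (0.532%, 0.0135 to 2.93), so few cells of either library showed a dividing profile. The list of hypoxia and glycolysis had a median log2 ratio of 0.03, with 4 of 18 at least 1.5-fold higher and 1 lower. Its extremes were the glycolytic genes Eno1, with 15 and 5 UMIs (ratio 2.77, 0.957 to 9.74), and Pgam1, with 17 and 24 UMIs (ratio 0.654, 0.330 to 1.27).

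Of 23 antioxidant and xenobiotic genes measured, 8 were at least 1.5-fold higher in the treated AT2 cells and 1 was lower. The shares over all genes measured were 13.6% and 10.8%. The list had a median log2 ratio of 0.29 in AT2 cells and 0.56 in AT1 cells. It was 0.54 in alveolar macrophages, 0.17 in lymphocytes and -0.02 in capillary endothelial cells. The list summed to 15157 CPM in the median treated cell and 9912 CPM in the median PBS cell. Cbr2, a carbonyl reductase abundant in lung epithelium, stood at 11353 and 6073 CPM (ratio 1.87, 1.82 to 1.92). Fmo2, a flavin monooxygenase, stood at 168 CPM (228 UMIs) against 44.0 CPM (55 UMIs), a ratio of 3.83 (2.84 to 5.24). Its ratios in capillary endothelial cells, alveolar macrophages and lymphocytes were 1.18, 1.45 and 2.32. Hmox1, which breaks down haem, had a ratio of 2.48, Gsta3, a glutathione transferase, 2.34, and Gclc, which limits glutathione synthesis, 1.62. Prdx6, a peroxiredoxin that also acts on surfactant phospholipid, had 1.51, whereas Gpx1 and Prdx1 had 1.13 and 1.00. Gsto1 was the lower member, from 6 and 14 UMIs (ratio 0.396, 0.125 to 1.10).

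Of 15 cytokine, chemokine and ligand genes not used by the rule, 7 were at least 1.5-fold higher and none lower, with a median log2 ratio of 0.37. The mucosal chemokine Cxcl17 had a ratio of 2.90. Il33, an alarmin of AT2 cells, stood at 198 and 153 CPM (ratio 1.30).

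Shares of positive cells were compared after each cell was thinned to 1000 UMIs, since the treated cells held more UMIs. This left 150 treated and 180 PBS AT2 cells, and set 2 and 8 aside. Lymphocytes, with median depths of 3268 and 2721 UMIs and thinned the same way, give the background share. Lcn2 was then seen in 52.7% (44.4 to 60.9) of treated and 26.7% (20.4 to 33.8) of PBS AT2 cells, against 3.01% and 0.747% of lymphocytes, so the AT2 shares kept their order at equal depth. Cebpd was seen in 49.3% and 6.67% of AT2 cells and in 6.66% and 0.464% of lymphocytes. Fmo2 was seen in 30 of 150 treated and 5 of 180 PBS AT2 cells. Lrg1 was seen in 17.3% and 7.22% of AT2 cells and in 4.92% and 0.489% of lymphocytes. Cxcl1 was seen in 15.3% and 8.89% of AT2 cells, and the ratio of these shares, 1.73, had an interval of 0.873 to 3.49 that includes 1. Areg was seen in 24 of 150 and 12 of 180 cells (ratio 2.40, 1.15 to 5.27). Nkx2-1 was seen in 14.0% and 8.89% of AT2 cells, and no interval was computed for the ratio of these shares. Scd2, by contrast, was seen in 33 of 150 treated and 59 of 180 PBS AT2 cells. Before thinning the shares were 91.4% and 66.0% for Lcn2, 85.5% and 23.9% for Cebpd, 53.9% and 18.1% for Fmo2 and 77.0% and 81.9% for Scd2.

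**Figure D5:**
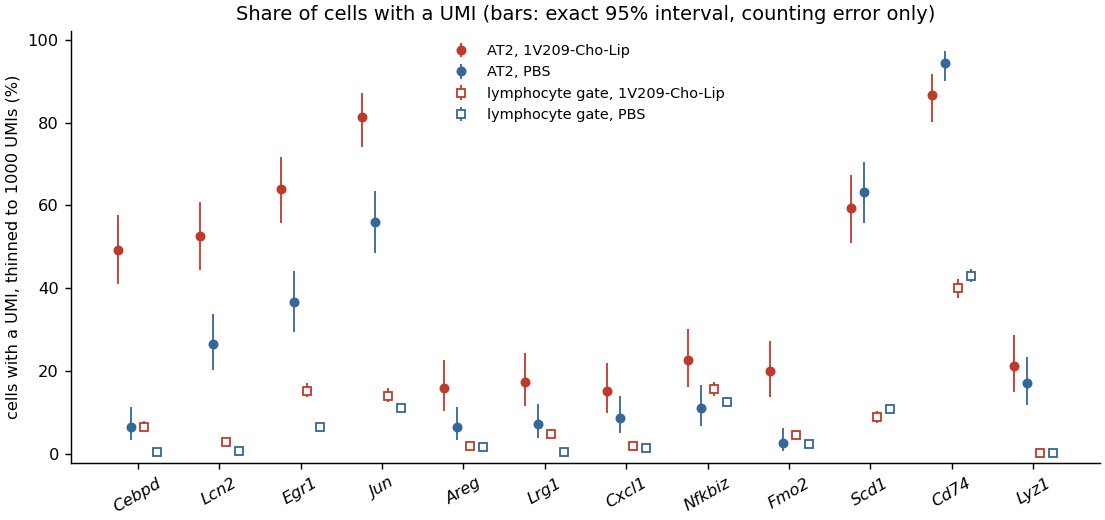
Percent of AT2 cells (filled points) and of lymphocytes (open points) with at least 1 UMI of named genes after each cell was thinned to 1000 UMIs, in both libraries. Bars are exact 95% intervals for counting error; Lcn2 is at 52.7% and 26.7% in AT2 cells and at 3.01% and 0.747% in lymphocytes.

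Transcripts of other cell types were present at low levels in the AT2 sums of both libraries, and their part in the results was not tested. The 14 macrophage markers summed to 149.8 CPM in treated and 55.1 CPM in PBS cells, with Marco at 0 in both. The 12 fibroblast and mural markers summed to 499.5 and 313 CPM, the 12 endothelial markers to 103 and 153 CPM, and the 13 lymphocyte markers to 53.1 and 108 CPM. Erythroid markers summed to 151 and 529.9 CPM and the 7 genes led by Def8, which mark a set of large barcodes in these libraries, to 31.0 and 82.3 CPM. Among epithelial neighbours, the 8 club and secretory markers summed to 1774 and 2017 CPM, with Bpifa1 and Muc5b at 0 in both, the ciliated markers to 74.5 and 56.7 CPM, with Ccdc153 and Tmem212 at 0 in both, and the 8 AT1 markers, of which the rule limits some, to 875 and 1237 CPM. The 5 AT2 markers summed to 217859 and 231017 CPM.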

How the data were processed

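Lungs of 3 mice for each group were pooled and run on the 10x Genomics platform, with 1 library for each group. The authors deposited raw UMI counts of each gene and cell, made with Cell Ranger 9.0.1 per the file headers on build mm10 per the submitters' processing notes; the annotation release is not given in the sources used here. The members and all gene lists were chosen with earlier results of these data known.

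From the deposited counts, barcodes were selected by the rule given above, counts were summed over the AT2 cells of each library, and CPM, their ratio and an exact conditional 95% interval were computed with Python 3.11.15, numpy 2.4.6, scipy 1.17.1 and pandas 2.3.3. A gene was measured with at least 20 UMIs over both sums. Log2 ratios had 0.5 counts added, and "higher" or "lower" means past 1.5-fold where a count of genes is given. No test between groups was possible. Where a symbol had several rows, the row with the most UMIs was used. Doublets were called with Scrublet in scanpy 1.11.5 for an alternative only.

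Genes were named when they had 60 UMIs and 50 CPM or more and a ratio among the 12 largest or 12 smallest, without ribosomal, mitochondrial, haemoglobin, immune receptor, predicted, rule and rRNA genes and those below 0.5 times their level in other barcodes. To these came in each list the 4 members with most UMIs and the highest and lowest ratio, and the 15 genes with the highest ratio over other barcodes; further members were named as examples after their values were seen. Capillary endothelial cells held Cdh5, Pecam1 and 1 of Cldn5, Plvap, Kdr and Car4. Alveolar macrophages held 3 of Marco, Chil3, Plet1, Ear2, Ear1, Siglecf, Fabp4 and Mrc1. Lymphocytes held Ptprc and 1 of Cd3e, Cd3d, Cd79a, Cd79b and Ms4a1. Capillary endothelial cells had no Ptprc or Epcam UMI, alveolar macrophages none of Epcam, Cdh5, Cd3e and Cd79a, and lymphocytes none of Epcam and Cdh5. Macrophage markers were not excluded from lymphocytes, nor Cd3d, Cd79b and Ms4a1 from alveolar macrophages. AT1 cells held 3 of 7 AT1 genes and no Ptprc or Cdh5. Genome positions and gene identity came from a GENCODE annotation of GRCm38 that matched 52081 of 55357 identifiers. The code for ratios and intervals was tested on simulated data. Other thresholds, scalings and thinning depths were tried. Leaving Def8-high barcodes out of the other cells and the shares without thinning or with a higher thinning depth were added after seeing the data.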

Additional observations from a re-analysis of the deposited data

Results flagged for a closer look

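Aqp5 was higher in AT2 cells (ratio 2.42) and AT1 cells (2.15, 1.88 to 2.46, at 782 and 364 CPM) and lower, at low levels, in capillary endothelial cells (0.401, at 19.4 and 48.3 CPM) and lymphocytes (0.419, at 17.5 and 41.8 CPM). Cxcl1 was higher in AT2 cells (2.71) and lower in capillary endothelial cells (0.550, 0.494 to 0.612). Cyp2b10 went likewise (5.59 against 0.539, the latter at 10.5 and 19.4 CPM), and was also higher in AT1 cells (1.62) and lymphocytes (2.31). Cbr2 was higher in AT2 cells (1.87) and lower in alveolar macrophages (0.385), where it stood at 13.2 and 34.4 CPM. Plk2, a stress-responsive kinase, was higher in AT2 cells (2.11) and lower in lymphocytes (0.591). Tbc1d8 was lower in AT2 cells (0.475) and higher in capillary endothelial cells (2.36). In each of these pairs of AT2 cells and a kind of cell with the opposite direction, the intervals for counting error lay on opposite sides of 1. The differences between kinds of cell were not tested, since each rests on 1 library for each group.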

How the results depend on the processing

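The ratio of AT2 shares went from 0.858 to 1.193 when divided by barcodes low in S100a8 and S100a9. Genes at least 1.5-fold higher numbered 322 with cells thinned to 1000 UMIs, 442 with at least 60 UMIs and 4560 with no minimum, and those at least 1.5-fold lower 270, 262 and 4392; fewer or more genes were then measured. At 2-fold the counts under the same choices were 135, 166 and 3229 higher, and 91, 38 and 2938 lower. Averaging CPM over cells in place of summing gave 420 genes 2-fold lower, and the cause was not tested. Thinning moved the median log2 ratio of the transcription factors to 0.6449 and that of the cytokines to 1.57, with fewer genes measured. Under that averaging Ctss, with 41.7% of its treated UMIs in 1 cell, reversed to -0.8651 on the log2 scale. Without Def8-high barcodes, 1 gene instead of 2 was lower in AT2 cells and all 3 other kinds of cell. Unthinned, the ratio of Cebpd shares was 3.573 instead of 7.40. The other 338 values of these comparisons held. Among the ratios of single named genes, 1599 values under an alternative stayed within their counting interval. Another 97 moved outside it, and 1, that of Ctss, reversed. Of 63 named genes past their fold, 11 fell short of it under at least 1 alternative: Bst2, Cnpy3, Ctss, Ddit3, Fn1, Hsph1, Inpp4b, Pgam1, Rrm2, Stat3 and Zfp36. Other scalings put the median log2 ratio of all genes between -0.11 and 0.05. No paired analysis was possible because each group has 1 library. Genes under about 20 UMIs were not readable at this depth.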

Other observations

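The AT2 cells with at least 1000 CPM of Lyz1 also held more S100a6, a calcium-binding protein, and more Calcrl, the receptor component for calcitonin-like peptides, than the other AT2 cells. S100a6 stood at 201 CPM in Lyz1-high and 67.5 CPM in the other treated cells (ratio 2.98), and at 307 and 72.6 CPM in the PBS cells (ratio 4.23). Calcrl rested on few UMIs, 11 in Lyz1-high and 11 in the other treated cells (ratio 4.56, 1.79 to 11.6). In the PBS cells it had 15 and 24 UMIs (ratio 2.96, 1.44 to 5.88). Both genes were chosen after their values were seen, and the same order in both libraries is given as a description without a test.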
